A study of Mus musculus with 4 samples.

Results

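Elane+ Cebpe+ cells are bone marrow progenitors that carried many transcripts of Elane, the gene of the azurophil granule protease neutrophil elastase, together with Cebpe, the gene of the transcription factor C/EBPε. They were chosen by their UMI counts, a UMI being a molecular identifier that stands for 1 captured transcript. A barcode had to hold no fewer than 1000 UMIs from no fewer than 500 genes, with a mitochondrial share of 10% or less. It then had at least 10 Elane UMIs and at least 1 Cebpe UMI, no UMI of F13a1 (a gene used as a monocyte marker), fewer than 3 of Fcer1a (mast cells and basophils) and fewer than 5 of Cd79a (B lineage). These conditions held for 2240 of the 38887 kept barcodes of 3 Kit+ libraries, which was 5.76%. The levels of these 5 genes were therefore set by the choice of cells and are given below only as a description.

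The libraries were made from bone marrow of mice 10 weeks after transplantation, with a 10x Genomics 5′ version 2 kit. All cells were sorted as CD45.2+, and those of the Kit+ libraries also for Kit, the stem cell factor receptor. The groups were a control, cells labelled Mll3/4 deleted and cells labelled Mll3/4SI, here called control, deleted and SI, with 1 library each. A further library held control CD45.2+B220lo cells. MLL3 and MLL4, encoded by Kmt2c and Kmt2d, are related histone H3 lysine 4 methyltransferases of the COMPASS family. The labels do not spell out SI, and they name neither the allele, the recombinase that made the deletion nor the number of animals in a library. With 1 library per group no difference between groups could be tested. Intervals are 95% exact intervals (Clopper-Pearson for shares, Poisson for levels, conditional for ratios of levels) and cover counting error only. A gene is said to have risen or fallen in these cells only where its summed level differed by at least 2-fold, and other differences are given as values.

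Neutrophils arise from granulocyte-monocyte progenitors through promyelocytes and myelocytes. Promyelocytes make the proteins of azurophil granules, such as myeloperoxidase, elastase, proteinase 3 and cathepsin G. At the next stage C/EBPε drives the genes of specific granules, among them lactoferrin and the cathelicidin Camp, while the azurophil genes are shut off.

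The kept Elane+ Cebpe+ cells were deep, with median UMI counts of 14947 for control, 22669 for deleted and 16551 for SI cells. The deleted cells had the highest minimum, 11007 UMIs against 1356 in the control and 1199 in the SI library. Summed over the cells, the totals were 20910783, 1748243 and 15250483 UMIs in the same order. A doublet score above 0.25 was found for 145 control, 3 deleted and 60 SI cells, which were 11.3%, 3.80% and 6.83% of them. Of the cells, 67, 6 and 62 had a barcode sequence that another library also held. The libraries differed in sex-linked transcripts: Xist stood at 7782, 0 and 5302 UMIs in these cells and the Y-linked Ddx3y at 0, 54 and 0, so sex and deletion cannot be told apart.

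Elane+ Cebpe+ cells were scarce in the deleted library. They made up 1282 of 11891 kept control barcodes (10.8%, 10.2 to 11.4) and 79 of 14915 deleted barcodes (0.530%, 0.420 to 0.660). In the SI library they were 879 of 12081 (7.28%, 6.82 to 7.75). The control share was 20.4 times the deleted share (16.2 to 25.9) and 1.48 times the SI share (1.36 to 1.62). The deleted library was filled by barcodes with at least 5 Cd79a and fewer than 10 Elane UMIs, which were 88.7% of its kept barcodes and 0.286% and 0.223% of those of the control and SI libraries. With only barcodes below 5 Cd79a UMIs in the denominator, the shares were 10.8% of 11846, 5.28% of 1497 (4.20 to 6.53) and 7.29% of 12053 in the control, deleted and SI libraries.

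Among barcodes with at least 10 Elane UMIs, the share that met the other conditions was 26.2% of 4884 in the control (25.0 to 27.5). It was 12.0% of 658 in the deleted library (9.62 to 14.7) and 23.8% of 3700 in the SI library (22.4 to 25.2). The deleted library was thus lower on this denominator as well, by less than on all kept barcodes. This denominator also holds barcodes with at least 5 Cd79a UMIs, which the rule leaves out. Within the Cd79a and Fcer1a limits the deleted library had 79 Elane+ Cebpe+ cells, 57 barcodes with neither Cebpe nor F13a1 and 337 with F13a1. In the control these were 1282, 690 and 2870. The barcodes outside these limits were a larger part of the 658 than of the 4884. The condition on F13a1 removed the most cells after that on Cebpe: of Elane+ barcodes with Cebpe, 1294 of 2412 control, 111 of 279 deleted and 934 of 1600 SI barcodes had no F13a1 UMI. The condition on Cd79a then removed 32 deleted and 3 control barcodes. Without the condition on F13a1 the shares were 20.1%, 1.29% and 12.6% of kept barcodes.

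**Figure D1:**
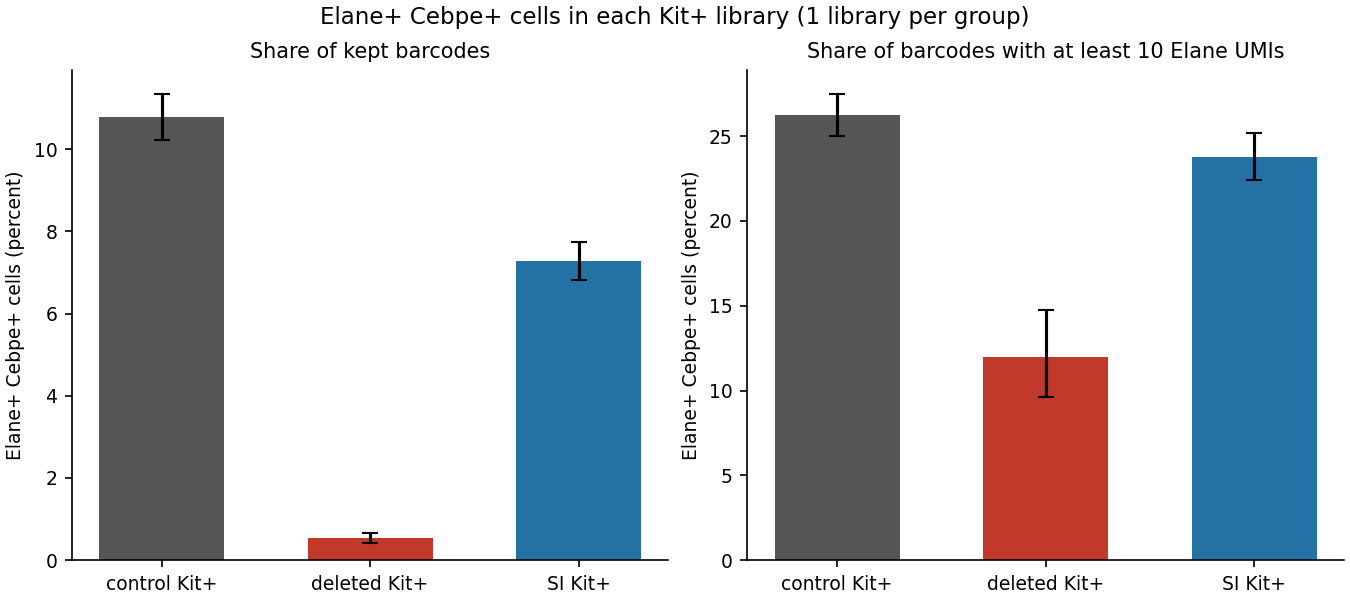
Share of Elane+ Cebpe+ cells in percent, with exact 95% intervals for counting error, in the 3 Kit+ libraries (1 library per group), over all kept barcodes (left) and over barcodes with at least 10 Elane UMIs (right). On the left the bars stand at 10.8%, 0.530% and 7.28%, and on the right at 26.2%, 12.0% and 23.8% for control, deleted and SI. The denominator on the right includes barcodes with at least 5 Cd79a UMIs.

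Near the limits of the choice, 446 control, 17 deleted and 314 SI cells had exactly 1 Cebpe UMI. Just outside it, 690, 57 and 1093 barcodes met every other condition with no Cebpe UMI. F13a1 stood at exactly 1 UMI in 396, 23 and 219 barcodes that met the rest. Few cells lay near the Elane limit: 14, 0 and 12 had 10 to 12 UMIs, and 19, 1 and 10 barcodes that met the rest had 7 to 9. The Fcer1a count was 2 in 8, 0 and 14 cells and 3 in 3, 0 and 9 barcodes outside. The Cd79a count was 4 in 1 deleted cell and 5 in 1 control barcode outside.

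Levels are given as CPM, the UMIs of a gene per 1000000 UMIs summed over the cells of a library. Elane itself stood at 14438, 14723 and 15298 CPM in control, deleted and SI cells, and Cebpe at 171, 190 and 179 CPM. The label of neutrophil commitment could not be checked by azurophil genes, which were abundant in other Elane+ barcodes too: the list summed to 29238, 40363 and 37384 CPM in those with F13a1 and to 27559, 42044 and 37692 CPM in those without Cebpe in the same order. Of control cells thinned to 5000 UMIs, 94.6% held a UMI of the specific granule list, 90.2% of the late neutrophil list and 88.8% of the monocyte list. Such shares do not separate the 2 fates, and the cells are called by their rule. Ratios are log2 ratios of CPM with 1 added, for the 8431 genes with a mean of at least 10 CPM over the 3 libraries. A gene that is low in some libraries passed through those where it is high, so counts over the measured members of a list are descriptions. The median over all of these was 0.02 for deleted over control and 0.01 for SI over control. In these cells 0.427% of the 8431 genes rose and 1.49% fell in the deleted library (36 and 126 genes). In the SI library 0.617% rose and 0.368% fell (52 and 31). With shares this low, a short list in which no gene rose or fell is like the genes at large. Both comparisons use the same control library, so their values are set side by side and not correlated.

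Azurophil granule genes were abundant in all 3 libraries, and none of the 11 measured members of a list of 12 rose or fell. The summed level of the 12 listed genes was 32493, 39668 and 40321 CPM in control, deleted and SI cells. The list's median log2 ratio to the control was 0.24 for deleted and 0.27 for SI cells, with 10 and 9 of the 11 genes above 0. Of all 8431 genes, 4448 and 4428 were above 0, and 0.427% and 0.617% rose while 1.49% and 0.368% fell. The list was therefore slightly higher in both libraries, well inside 2-fold. Doublet scores and erythroid-type UMIs moved with it: without the cells of high doublet score the medians were 0.17 and 0.22, and Mpo stood at 9289 CPM in the 173 control cells with a Gata1 UMI (an erythroid gene) and 16761 CPM in the others.

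Mpo, the gene of myeloperoxidase, stood at 15164, 18019 and 19768 CPM in control, deleted and SI cells, ratios to the control of 1.19 (1.18 to 1.20) and 1.30 (1.30 to 1.31). Prtn3, encoding proteinase 3, stood at 7488, 10123 and 9485 CPM. Ctsg, encoding cathepsin G, stood at 4312, 5387 and 5257 CPM. The control was lowest for all 3 of these genes. Ms4a3, a marker of granulocyte-monocyte progenitors, was also lowest in the control, at 1027 CPM against 1458 and 1572. Srgn, the proteoglycan core that packs granule proteases, went another way, with 2862, 3064 and 2425 CPM. Cd63, a granule membrane protein, was lowest in the deleted cells, at 737, 597 and 869 CPM.

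Per cell, with each cell thinned to 5000 UMIs (1269 control, 79 deleted and 861 SI cells; 13, 0 and 18 shallower cells left out), the median was 167, 199 and 200 azurophil UMIs. Mpo was detected in 100%, 100% and 99.9% of the thinned cells. In erythroid barcodes, chosen by at least 10 Car1 UMIs, a Klf1 UMI and few Elane UMIs, Mpo was found in 22.4% of thinned control cells, 0% of 49 deleted and 35.6% of SI cells. Such shares stand for barcodes of a type that should lack the gene. A count of 0 of 49 allows a share of barcodes with a UMI of up to 6.12% by the limit of 3 counts, and its exact interval reaches 7.25%. The median depths of the erythroid barcodes before thinning were 18715, 20449 and 20276 UMIs.

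Specific granule genes were far lower as a sum, at 1503, 1435 and 2284 CPM for the 16 listed genes in control, deleted and SI cells, and 1408, 772 and 2132 CPM without the top cell of each library. In the deleted library 2 of the 12 measured genes fell, against 1.49% of all genes, and none rose, with a median of -0.25. Over the alternative settings this median ran from -0.73 to -0.090. The 2 that fell, Ltf and Itgam, were below 10 CPM in the deleted cells. They passed the filter through the control and SI libraries, which favours a fall. In the SI library 1 rose and 1 fell, against 0.617% and 0.368%, with a median of 0.46. The SI median was 0.21 without the cells of high doublet score and 0.030 with the rule on thinned cells. Ltf, the gene of lactoferrin, had 342, 2 and 317 UMIs in control, deleted and SI cells, from 15, 1 and 13 cells. Its deleted over control ratio was 0.0700, with a counting interval from 0.00844 to 0.255. The shares of cells with an Ltf UMI were close, at 1.17%, 1.27% and 1.48%, so its lower deleted level rests on the 2 UMIs of 1 cell. Itgam, the integrin chain CD11b stored in these granules, fell as well, with 21.0, 7.44 and 32.2 CPM, though with 10 CPM added its log2 ratio was -0.83. In the SI cells Lyz2, encoding lysozyme, rose, with 171, 89.2 and 409 CPM. After thinning, it had a UMI in 47.1%, 20.3% and 64.9% of the cells, against 6.68%, 8.16% and 6.25% of erythroid barcodes. With F13a1 at any level its SI log2 ratio was 0.91. Chil3, a chitinase-like secretory protein of myeloid cells, fell in the SI cells, with 52.8, 62.4 and 16.9 CPM, and its log2 ratio of -1.59 was -0.81 in cells of 15000 to 25000 UMIs.

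The genes Camp, Ngp and Fcnb, which encode the cathelicidin, the neutrophilic granule protein and ficolin-B, were carried by few cells. Their promoters are shown because these genes were among the 8 with the largest increase over Elane+ cells without Cebpe (described after the granule genes, with the values that rest on 1 deleted cell). The sequences are RefSeq windows of 300 bases, from 250 before to 50 after the gene's start, on GRCm38.p6: Ngp at chr9:110419558-110419857, plus strand, Fcnb at chr2:28084829-28085128, minus strand and Camp at chr9:109849407-109849706, minus strand. Capitals mark the letters TTGCNNAA of a C/EBP site on either strand, overlaps allowed.
Ngp: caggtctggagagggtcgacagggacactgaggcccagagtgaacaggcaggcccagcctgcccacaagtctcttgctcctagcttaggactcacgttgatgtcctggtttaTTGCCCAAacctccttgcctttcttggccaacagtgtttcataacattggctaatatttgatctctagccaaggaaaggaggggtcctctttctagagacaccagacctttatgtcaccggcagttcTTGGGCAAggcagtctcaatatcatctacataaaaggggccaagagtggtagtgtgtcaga
Fcnb: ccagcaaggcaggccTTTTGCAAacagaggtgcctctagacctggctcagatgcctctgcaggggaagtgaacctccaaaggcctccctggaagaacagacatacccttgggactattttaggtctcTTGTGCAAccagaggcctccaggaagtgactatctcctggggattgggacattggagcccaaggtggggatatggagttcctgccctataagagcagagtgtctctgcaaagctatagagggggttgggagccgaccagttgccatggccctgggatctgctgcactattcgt
Camp: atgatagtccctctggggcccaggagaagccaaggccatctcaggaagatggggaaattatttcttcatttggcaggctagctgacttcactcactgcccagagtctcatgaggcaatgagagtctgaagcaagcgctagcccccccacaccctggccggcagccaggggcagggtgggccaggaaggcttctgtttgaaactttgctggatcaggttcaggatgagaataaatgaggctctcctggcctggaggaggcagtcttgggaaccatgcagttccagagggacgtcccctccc
The Ngp and Fcnb windows hold 2 such matches each and the Camp window holds 0. Of the same 8 genes, the windows of S100a9, S100a8 and Chil3, not shown, hold 1, 0 and 0. The letters occurred in 6 of the 14 specific granule genes with a promoter entry (42.9%), 1 of 9 azurophil genes (11.1%) and 10.8% of all 32851 promoter windows. A match is a description of the sequence and not a measured binding site.

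Camp had 6087 UMIs in 50 control cells, 606 in 5 deleted cells and 6239 in 39 SI cells, and its levels were 291, 347 and 409 CPM. A single cell held 882, 580 and 1004 of these UMIs. In the deleted library this cell was 95.7% of the Camp signal. Ngp had 4483, 321 and 6365 UMIs in 63, 3 and 53 cells, and the top deleted cell held 317. At least 5 Camp UMIs were found in 1.48%, 2.53% and 1.71% of the cells, and at least 5 Ngp UMIs in 1.33%, 1.27% and 1.82%. The share of cells with strong late-granule transcripts was therefore low in each library, and 1 to 2 deleted cells cannot order it. After thinning, 2.05%, 3.80% and 2.44% of the cells had a Camp UMI, against 0.753%, 0% and 1.06% of erythroid barcodes. In the 23 cells of the B220lo library that met the same rule, Camp stood at 18198 CPM, Ngp at 14553 and S100a8 at 28117 CPM.

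Hp, encoding haptoglobin, was more evenly spread. It had a UMI in 1116 control, 74 deleted and 811 SI cells, and its levels were 223, 328 and 341 CPM. Anxa1 (annexin A1) stood at 324, 267 and 435 CPM and Lcn2 (lipocalin 2) at 83.0, 55.5 and 93.9 CPM. These 3 stayed within 2-fold.

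**Figure D2:**
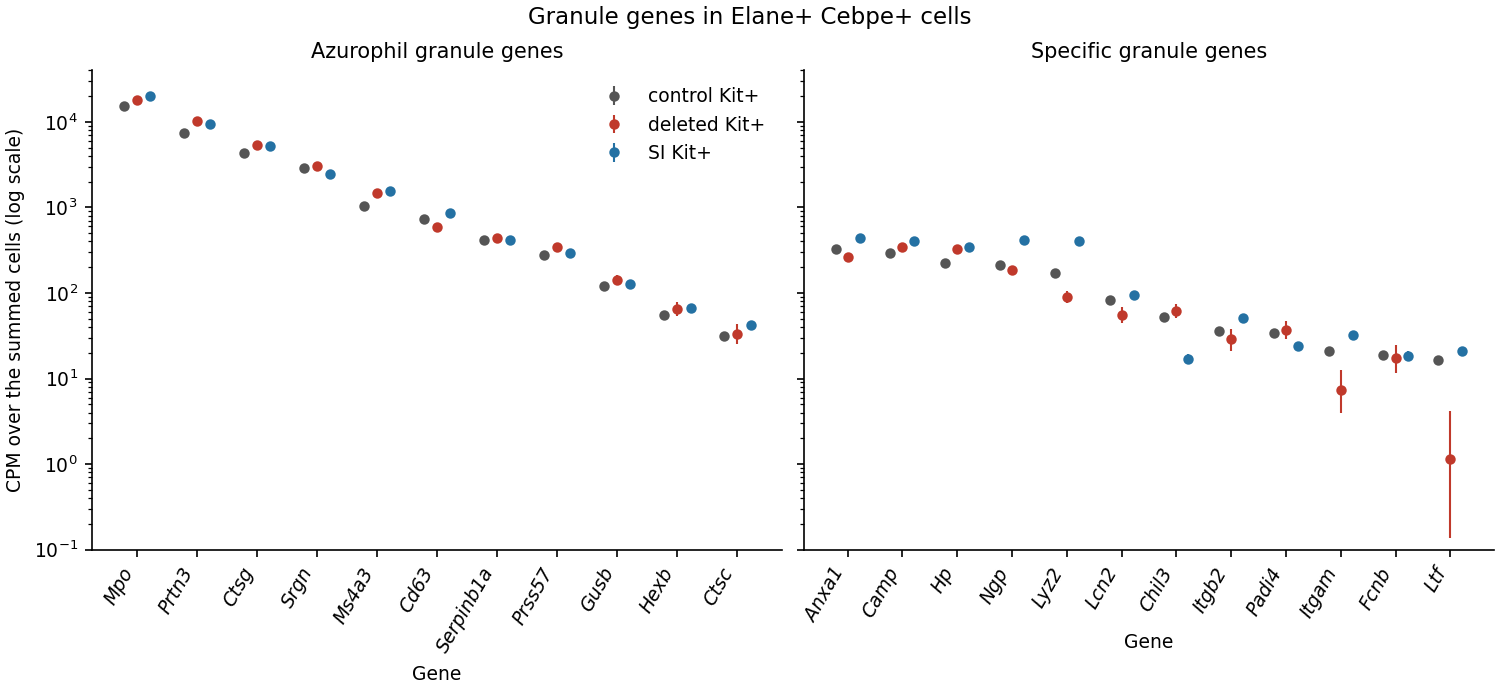
Level of each measured azurophil (left) and specific (right) granule gene in CPM on a log scale, as UMIs summed over Elane+ Cebpe+ cells of each library (1 library per group), with exact 95% Poisson intervals that are often smaller than the points. Azurophil genes of the 3 libraries lie close together, with the control lowest for Mpo, Prtn3 and Ctsg, while specific granule genes spread more widely, with Ltf at 2 UMIs from 1 deleted cell.

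Genes of mature neutrophils summed to 1787, 2239 and 3157 CPM in control, deleted and SI cells, and to 1672, 921 and 2908 CPM without the top cell of each library. Of 20 listed genes 8 were measured. In the deleted library 2 fell and none rose, against 1.49% and 0.427% of all genes, and in the SI library 2 rose and none fell, against 0.617% and 0.368%, with median log2 ratios of 0.01 (deleted) and 0.36 (SI). S100a8, a calcium-binding alarmin subunit, stood at 363, 672 and 1002 CPM and rose in the SI cells, with a UMI in 18.5%, 20.3% and 39.2% of control, deleted and SI cells. After thinning the shares were 10.4%, 10.1% and 27.5%, against 2.02%, 0% and 3.42% of erythroid barcodes. In the deleted library 1 cell held 73.0% of the S100a8 UMIs, and without the top cell of each library its log2 ratio was -0.84 in place of 0.89. Its partner S100a9 stood at 782, 1042 and 1477 CPM, with log2 ratios of 0.41 in the deleted (-1.47 without the top cells) and 0.92 in the SI cells. Cxcr2, a chemokine receptor of mature neutrophils, fell in the deleted and rose in the SI cells, at 8.80, 3.43 and 32.3 CPM. It passed the filter through the SI library, which favours a rise there. The deleted value rests on 6 UMIs, and it was -0.19 when the rule was applied to cells thinned to 5000 UMIs. Clec4d, a C-type lectin receptor, fell in the deleted cells (24.3, 9.15 and 21.4 CPM), with a log2 ratio of -0.96 without the cells of high doublet score. It passed the filter through the control and SI libraries, which favours a fall. Pglyrp1, a peptidoglycan recognition protein of granules, was spread over most cells and stayed within 2-fold, at 382, 273 and 346 CPM, with a UMI in 1141, 72 and 656 cells. Csf3r, the G-CSF receptor, hardly differed, at 67.9, 69.2 and 79.1 CPM. None of the 6 NADPH oxidase genes rose or fell, beside the shares of all genes given above, with medians of -0.05 and 0.23. Cybb, the catalytic subunit, stood at 20.5, 26.9 and 37.6 CPM and Cyba, its partner, at 341, 277 and 401 CPM.

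Within each library the cells were set against Elane+ barcodes that met every condition but had no Cebpe UMI (690 control, 57 deleted, 1093 SI). This comparison stays inside 1 library, but Cebpe was used to split the cells and the 2 sets differ in depth: the barcodes without Cebpe had medians of 12116, 12212 and 14089 UMIs. Of the 8431 genes, 13 were at least 2-fold higher in Elane+ Cebpe+ cells in all 3 libraries and 0 were lower. The 8431 genes had passed the filter on their mean in Elane+ Cebpe+ cells alone, which favours genes higher in them. Fcnb, for example, stood at 18.6, 17.2 and 18.4 CPM in these cells and at 5.11, 1.34 and 1.31 CPM in the barcodes without Cebpe. The counts below are therefore descriptions. Specific granule genes stood out by count, with 11 of 12 above 0 in all 3 libraries, 6 of them past 2-fold in each, against 16.6% of all genes above 0 in all 3. Without the top cell for each gene in each library, 6 of the 12 were above 0 in all 3 and 2 past 2-fold, against 1104 and 9 of all 8431 genes. The medians of the specific granule genes were 0.90, 1.10 and 1.41 in control, deleted and SI, and 0.66, 0.20 and 1.29 without the top cells. Of the azurophil genes, 8 of 11 were above 0 in all 3, with medians of 0.33, 0.17 and 0.24. Monocyte markers went the other way, with 6 of 7 below 0 in all 3, against 37.4% of all genes, and medians of -0.61, -0.87 and -0.89.

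Under the same filter, the genes with the largest smallest-of-3 ratio were granule and late myeloid genes. Ngp was higher by 3.23, 5.65 and 7.19 in control, deleted and SI on the log2 scale. Camp was higher by 3.09, 8.44 and 7.19. S100a9 was higher by 3.01, 7.70 and 4.57, and S100a8 by 2.66, 5.42 and 3.06. The eosinophil granule genes Prg2 and Prg3 were higher by 2.54, 7.39 and 3.68 and by 1.88, 4.31 and 3.08. Chil3 was higher by 3.54, 2.14 and 3.84 and Fcnb by 1.68, 2.96 and 3.07. The deleted values of several of these rest on 1 cell: without the top cell Ngp was at -0.16 and Chil3 at -0.50 there, Camp at 3.99, S100a9 at 5.67, S100a8 at 3.54 and Prg2 at 4.51. The deleted barcodes without Cebpe held 0 UMIs of Camp, Prg2 and Prg3, 1 of Fcnb, 2 of Ngp and 3 of S100a9. The SI barcodes without Cebpe held 0 UMIs of Prg2. Ratios over 0 UMIs depend on the 1 CPM added and are not measured folds. On the low side, Irf8, a transcription factor of monocyte and dendritic fate, was at -1.0, -0.84 and -1.21. Ly86, a surface partner of an RP105 receptor on monocytes and B cells, was at -0.96, -0.84 and -0.96. Selp (P-selectin) was at -0.92, -1.31 and -1.36 and Il6ra (interleukin 6 receptor) at -0.81, -1.71 and -0.86. Auts2, Maml3, Atrnl1 and Trps1 were the others, between -0.76 and -1.35. Auts2, a chromatin-associated gene, also rose against the control in both libraries, by log2 ratios of 1.10 (0.59 with F13a1 at any level) and 1.23 (0.75 in cells of 15000 to 25000 UMIs).

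**Figure D3:**
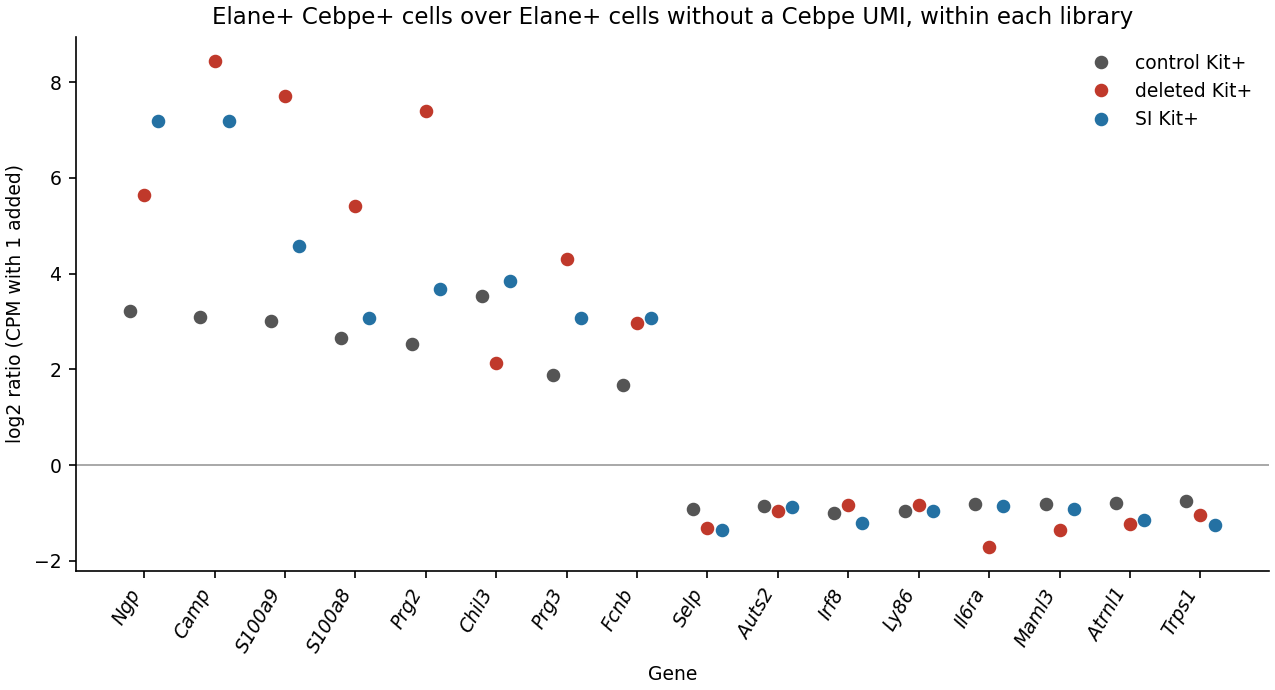
Log2 ratio (CPM with 1 added) of Elane+ Cebpe+ cells over Elane+ cells without a Cebpe UMI within each of the 3 Kit+ libraries, for the 8 genes each way with the largest smallest-of-3 ratio. Ngp, Camp, S100a9, S100a8, Prg2, Chil3, Prg3 and Fcnb are above 1 in each library, and the 8 genes on the right are below 0 in each. Without its top deleted cell, Ngp was at -0.16 and Chil3 at -0.50 in that library, and the other 6 between 2.04 and 5.67. The deleted values of Camp, Prg2 and Prg3 and the SI value of Prg2 are ratios over 0 UMIs. Genes were filtered on their level in Elane+ Cebpe+ cells alone, which favours genes higher in them.

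Cells with at least 4 Cebpe UMIs carried the highest level of specific granule transcripts in each library, which in the deleted library came mostly from 1 cell. In the control, cells with 1, with 2 to 3 and with at least 4 Cebpe UMIs had 735, 1216 and 2790 CPM of the specific list. In the deleted library the 17, 28 and 34 cells of these classes had 698, 745 and 2400 CPM, and in the SI library the values were 1318, 1285 and 4102 CPM. Without the top cell of each class the deleted values were 661, 721 and 832 CPM, and the classes of at least 4 stood at 2458 CPM in the control and 3672 in the SI library. Cd63 was higher in each next class, with 578, 682 and 996 CPM in the control, 396, 568 and 722 in the deleted and 661, 880 and 1053 in the SI cells. Irf8 had the opposite order, with 46.0, 26.8 and 16.7 CPM in the control, 29.7, 14.1 and 5.42 in the deleted and 56.1, 33.9 and 21.3 in the SI cells. Depth also moved with the classes, and its part was not tested: the medians were 14081, 15044 and 15606 UMIs in the control, 21022, 22754.5 and 22740.0 in the deleted and 15302.5, 16658.5 and 17634 in the SI library.

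Myeloid transcription factors were mostly close to the control. Of 18 measured factors of 20 listed, none rose, 2 fell in the deleted library and none fell in the SI library, against 1.49% and 0.368% of all genes, with medians of 0.05 and 0.04. Cebpa, which starts the granulocyte program, stood at 74.8, 77.2 and 92.4 CPM in control, deleted and SI cells. Gfi1, a repressor needed for neutrophils, stood at 97.7, 122 and 108 CPM. Spi1 (PU.1) stood at 261, 310 and 336 CPM and Myb at 564, 657 and 632 CPM. Cebpd was highest in the SI cells, at 72.5, 92.7 and 126 CPM. The 2 that fell in the deleted cells were Irf8 and Gata2.

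Genes of the secretory pathway, which folds and exports granule proteins, were a little higher in both libraries without any of the 28 rising or falling. In the deleted cells 27 of 28 were above 0 (median 0.20) and in the SI cells 25 of 28 (median 0.15), against 52.8% and 52.5% of all genes. Without the cells of high doublet score the medians were 0.15 and 0.11. The summed level was 10840, 12918 and 12238 CPM in control, deleted and SI cells, and 11341, 12959 and 12548 CPM without the cells of high doublet score. The shift was not limited to Elane+ Cebpe+ cells. The deleted and SI medians were 0.46 and 0.21 in Elane+ barcodes without Cebpe and 0.30 and 0.18 in those with F13a1. They were 0.07 and -0.03 in erythroid and 0.57 and 0.225 in B-lineage barcodes. The chaperone Calr stood at 1015, 1364 and 1324 CPM, and Herpud1, of the endoplasmic reticulum stress response, was below the control in both (95.6, 74.9 and 69.1 CPM). Of the 20 G2/M genes, 17 and 15 were above 0 with medians of 0.22 and 0.08. Of 20 S phase genes 10 and 13 were above 0 with medians of 0.03 and 0.04, beside the same shares of all genes. None of these listed S phase and G2/M genes rose or fell. Mki67 stood at 199, 208 and 196 CPM. Restricted to cells of 15000 to 25000 UMIs, the G2/M medians were -0.33 and -0.20.

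Monocyte genes were lower in the deleted Elane+ Cebpe+ cells. Of 16 listed markers 7 were measured, and 5 of these fell in the deleted library (median -1.27), against 1.49% of all genes. Of these 5, 4 were below 10 CPM in the deleted cells and passed the filter through the control and SI libraries, which favours a fall, and the other 9 listed markers did not pass. In the SI library 2 rose, against 0.617% (median 0.27). Csf1r, the receptor of the macrophage growth factor, stood at 18.0, 6.86 and 20.1 CPM in control, deleted and SI cells, a deleted over control ratio of 0.382 (0.196 to 0.675). Irf8 stood at 30.3, 13.7 and 36.8 CPM, a ratio of 0.454 (0.288 to 0.681). Ly86 stood at 20.6, 6.29 and 19.1 CPM. Mpeg1, encoding the pore-forming perforin-2, had 254, 3 and 259 UMIs, a ratio of 0.141 (0.0289 to 0.418). The membrane protein gene Ms4a6b fell to 9.72 from 24.8 CPM in the deleted cells and rose to 58.4 in the SI cells, although the SI log2 ratio of 1.20 was 0.97 with 10 CPM added. Ms4a6c, of the same family, stood at 64.4, 44.0 and 214 CPM and rose in the SI cells too. Ly6c2, the most abundant of the list, did not pass 2-fold, with 1023, 551 and 984 CPM.

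The summed level of all 16 listed markers was 1216, 652 and 1392 CPM. After thinning to 5000 UMIs, no monocyte UMI was left in 11.2%, 29.1% and 8.36% of control, deleted and SI cells, and 25.4%, 6.33% and 24.2% had 10 or more. The choice of cells removed every barcode with an F13a1 UMI. The deleted cells were deeper, with the medians given above, and the part of this in the result was not tested. With F13a1 at any level the median of the list was -0.54 and none of the 5 genes was past 2-fold, nor was any with 10 CPM added. In cells of 15000 to 25000 UMIs it was -0.92, and with the rule applied to thinned cells -1.09. In Elane+ barcodes with F13a1 the deleted over control median was -0.05, and in those without Cebpe -0.38.

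**Figure D4:**
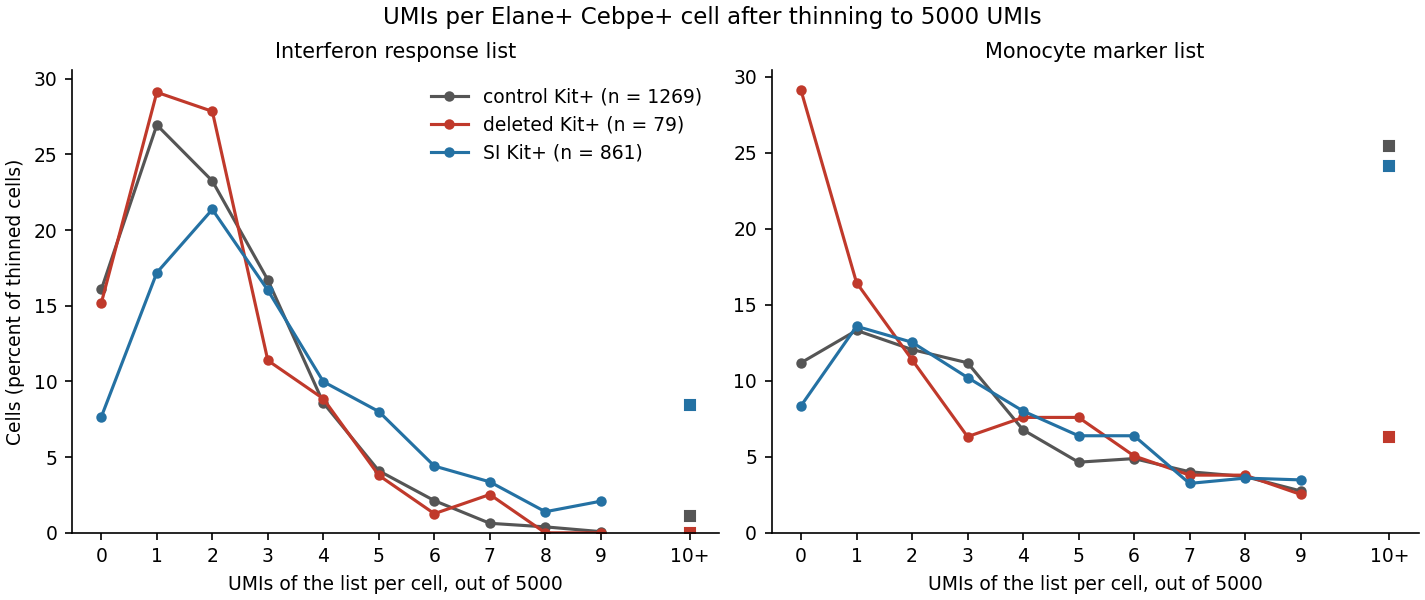
Distribution of UMIs per cell, as percent of Elane+ Cebpe+ cells thinned to 5000 UMIs, for the interferon response list (left) and the monocyte marker list (right), with squares for 10 or more UMIs. SI cells are shifted to higher interferon counts (8.48% at 10 or more, against 1.10% in the control and 0% in the deleted), and 29.1% of deleted cells had no monocyte UMI.

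Megakaryocyte and erythroid transcripts were also lower in the deleted cells. The 3 measured megakaryocyte markers of 12 fell there, against 1.49% of all genes, and Pf4 passed the filter through the control alone. Pf4 (platelet factor 4) had 1051, 0 and 59 UMIs in control, deleted and SI cells and was at least 29.3-fold lower in the deleted cells, with 0 taken as 3 UMIs. Control Pf4 stood at 179 CPM in the 173 cells with a Gata1 UMI and at 15.3 CPM in the others. The 12 markers summed to 150, 19.4 and 105 CPM, and to 104, 20.4 and 96.2 CPM without the cells of high doublet score. Itga2b (CD41) stood at 39.8, 8.01 and 49.8 CPM and Plek (pleckstrin) at 19.8, 7.44 and 24.8 CPM, and the log2 ratio of Plek was -0.95 without the cells of high doublet score. Itga2b and Plek were below 10 CPM in the deleted cells. Both passed the filter through the control and SI libraries, which favours a fall. In the SI cells Pf4 was the 1 marker that fell, against 0.368% of all genes. Of the 4 measured erythroid markers of 16, 3 fell in both libraries, against 1.49% and 0.368% of all genes, with medians of -2.52 and -1.44 that were -1.18 and -1.73 without the cells of high doublet score. Car1, encoding carbonic anhydrase 1, had 6243, 34 and 1578 UMIs. Car2 stood at 127, 17.7 and 28.9 CPM and Gata1, the erythroid and megakaryocyte transcription factor, at 23.1, 4.00 and 8.39 CPM. Gata1 passed the filter through the control alone, which favours a fall in both libraries. The lower deleted levels were not limited to Elane+ Cebpe+ cells. The deleted over control megakaryocyte median was -3.05 in Elane+ barcodes without Cebpe, -3.07 in those with F13a1, -3.11 in erythroid and -2.94 in B-lineage barcodes (34 in the control). In the same order the erythroid medians were -1.73, -4.67, 0.13 and -2.71.

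Doublet scores moved with these erythroid differences, and their part was not tested beyond the values here. A Gata1 UMI was found in 173 control cells (13.5%), 3 deleted cells (3.80%) and 50 SI cells (5.69%). Of these 173 control cells 54.9% had a doublet score above 0.25, against 4.51% of the other control cells, and Car1 stood at 1236 CPM in them and 43.9 CPM in the others. The summed erythroid level was 560, 114 and 200 CPM over all cells. It was 182, 115 and 65.1 CPM without the cells of high doublet score, and 93.9, 86.7 and 53.6 CPM in cells with no Gata1, Klf1 or Pf4 UMI and at most 2 Car1 UMIs. That last set was chosen by genes of the same list, so its sums are a description.

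Mast cell and basophil genes differed by gene and library. Of 16 listed markers 5 were measured, with medians of -0.71 and 0.06. The deleted median turned to 0.10 with a filter of 50 CPM. In the deleted cells 2 fell, against 1.49% of all genes, and in the SI cells 1 rose, against 0.617%. Cpa3, a mast cell carboxypeptidase, fell in the deleted and rose in the SI cells, at 170, 28.0 and 401 CPM, with an SI log2 ratio of 1.24 that was 0.99 with the rule on thinned cells. Gata2, a factor of stem, mast and megakaryocyte cells, fell in the deleted cells, at 38.1, 11.4 and 33.9 CPM. Hdc (histidine decarboxylase) stood at 196, 239 and 345 CPM and the basophil protease Mcpt8 at 28.7, 17.2 and 30.0 CPM, both inside 2-fold. Of 12 dendritic markers 3 were measured, and Irf8 was the 1 that fell in the deleted cells, against 1.49% of all genes.

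Other genes with the largest decreases in the deleted cells were Slc25a21, a mitochondrial carrier, with 509, 0 and 157 UMIs in control, deleted and SI (at least 14.2-fold lower). Ctla2a, a cysteine protease inhibitor, stood at 54.1, 4.00 and 32.2 CPM. Fyb, an adaptor of immune and platelet cells, stood at 34.1, 3.43 and 42.0 CPM. Tpm3-rs7, a sequence related to the tropomyosin gene Tpm3, had 1005, 2 and 27 UMIs, a deleted over control ratio of 0.0238 (0.00288 to 0.0862), and reads of such a copy cannot be told from those of its parent with certainty. Ctla2a and Fyb separated the deleted cells from both other libraries, while Tpm3-rs7 was low in both the deleted and the SI cells.

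**Figure D5:**
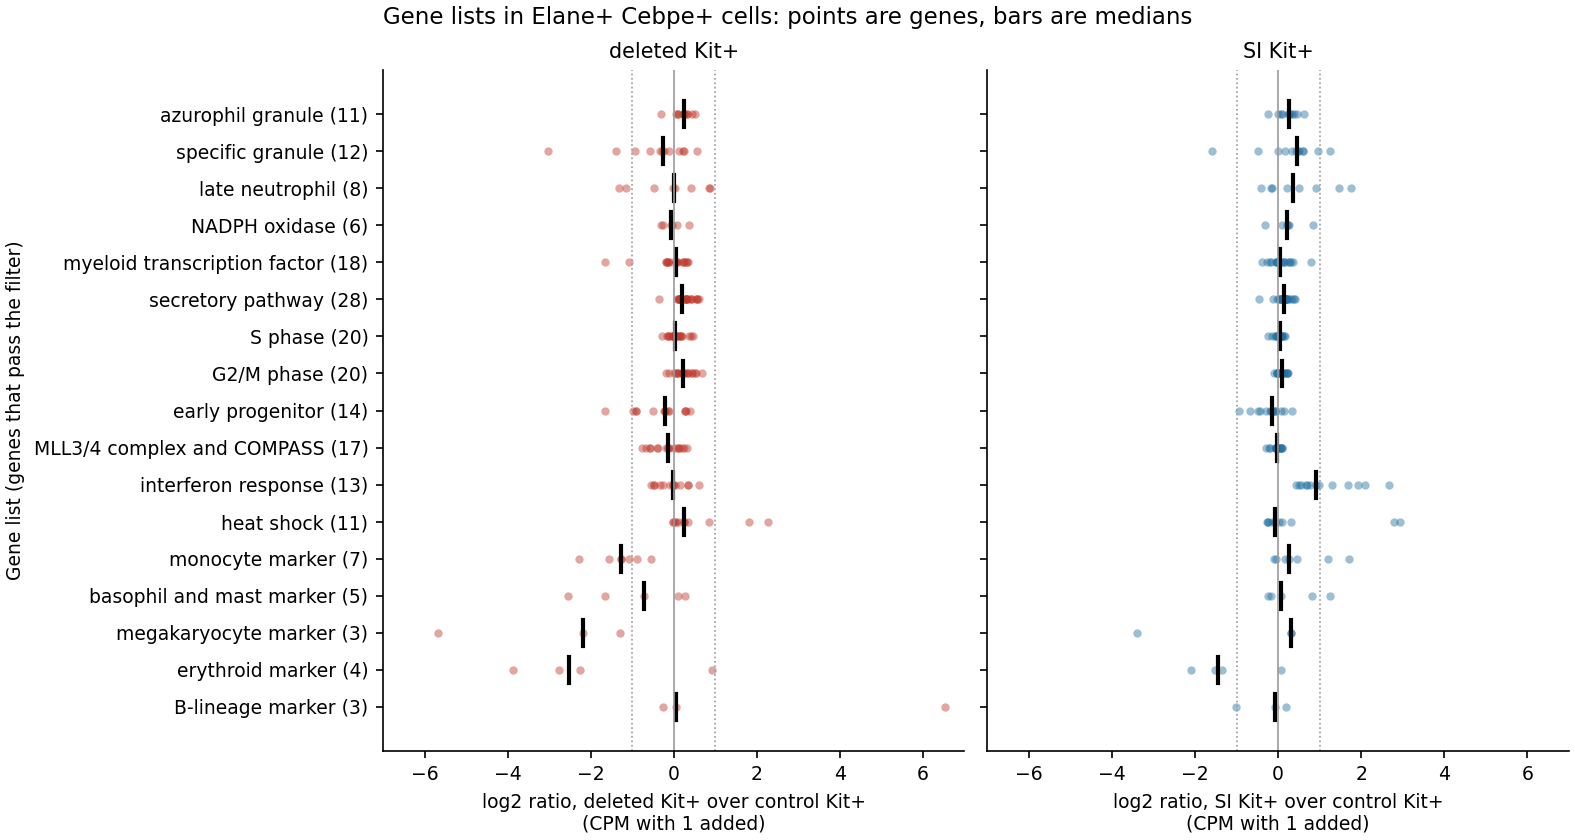
Log2 ratio to the control (CPM with 1 added) of every measured gene of 17 lists in Elane+ Cebpe+ cells of the deleted (left) and SI (right) library, with a bar at each median and dotted lines at 2-fold. The azurophil medians are 0.24 and 0.27, the monocyte median is -1.27 in the deleted cells, and all 13 interferon genes lie above 0 in the SI cells (median 0.91).

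Def8, whose product acts in lysosome positioning, rose in the deleted cells and was detected in most of them. It stood at 65.4, 680 and 61.1 CPM in control, deleted and SI cells, a deleted over control ratio of 10.4 (9.61 to 11.2). Thinned cells had a Def8 UMI in 25.3%, 87.3% and 25.0% of cases in control, deleted and SI libraries. It was not limited to these cells: in the deleted library it stood at 816 CPM in Elane+ barcodes without Cebpe, 957 in those with F13a1, 241 in erythroid and 1800 in B-lineage barcodes. Cep85, a centrosome gene, rose in both libraries, at 34.7, 141 and 112 CPM.

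The other leading increases came from few cells. Ebf1, the transcription factor of early B cells, had 1, 169 and 0 UMIs, and its 169 UMIs lay in 17 of 79 deleted cells with 89 in a single cell. Its deleted over control ratio was 2021, with a counting interval from 358 to 80308. Magi1 had 7, 78 and 2 UMIs, with 40 in 1 deleted cell, and Brinp3 had 6, 58 and 9 UMIs, with 24 in 1 cell. Foxo1, a forkhead factor of B and stem cells, stood at 4.07, 54.3 and 3.80 CPM and had UMIs in 17 deleted cells. These genes were abundant in the B-lineage barcodes of the deleted library, at 1804 CPM for Ebf1, 968 for Foxo1, 548 for Magi1 and 576 for Brinp3. Ebf1 stood at 17.4 CPM in that library's Elane+ barcodes without Cebpe and 9.13 CPM in its erythroid barcodes.

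The summed level of 20 B-lineage markers was 80.4, 280 and 83.7 CPM in control, deleted and SI cells, and 141 CPM in the deleted cells without high doublet scores. Of these markers 3 were measured, and Ebf1 was the 1 that rose, against 0.427% of all genes, having passed the filter through the deleted library alone. With thinning, 27.9%, 51.9% and 29.2% of the cells had at least 1 B-lineage UMI, against 6.54%, 44.9% and 7.55% of erythroid barcodes of the same libraries. The intervals of the 2 deleted shares overlapped (40.4 to 63.3 and 30.7 to 59.8), while the levels differed. The deleted Elane+ Cebpe+ cells had a mean of 1.37 B-lineage UMIs after thinning, and the deleted erythroid barcodes 0.674. Summed levels were 280 CPM in these deleted cells and 87.6 CPM in the deleted erythroid barcodes, which were chosen with fewer than 5 Cd79a UMIs as well. The higher level was not limited to Elane+ Cebpe+ cells: it was 253 CPM in deleted Elane+ barcodes without Cebpe and 314 CPM in those with F13a1. After thinning, 68% of the deleted Elane+ barcodes without Cebpe had a B-lineage UMI, with a mean of 1.34. With cells of 0 Cd79a UMIs alone, Foxo1 had a log2 ratio of 0.98. An assembled immunoglobulin contig was found for 1 of 79 deleted cells (1.27%) and for 0 of the control and SI cells. Prg2, the eosinophil major basic protein, had 142, 292 and 180 UMIs, and 254 of the deleted UMIs came from 1 cell. Dach2, at 8.27, 29.7 and 13.8 CPM, had 26 of its 52 deleted UMIs in 1 cell. Without the top cells its log2 ratio was 0.80, and that of Prg2 was 0.92 with the rule on thinned cells.

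Genes of the MLL3/4 complexes and COMPASS were near the control. None of 17 measured genes of 18 rose or fell, with medians of -0.14 and -0.03. Of all genes, 0.427% rose and 1.49% fell in the deleted library, and 0.617% and 0.368% in the SI library. Kmt2c, the MLL3 gene, stood at 48.9, 32.6 and 46.6 CPM in control, deleted and SI cells, a deleted over control ratio of 0.667 (0.502 to 0.871). Kmt2d, the MLL4 gene, stood at 24.3, 18.3 and 19.5 CPM. A 5′ UMI does not cover the part that was deleted unless it lies at the transcript's start, and the labels do not give the deleted exons, so these levels check neither label. Kdm6a, the X-linked demethylase of the complex, stood at 47.7, 27.5 and 47.0 CPM and sex and deletion cannot be told apart for it.

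Interferon response genes were higher in the SI cells. All 13 measured genes of 18 listed were above 0 in the SI library and 5 of them rose, against 0.617% of all genes. Of these 5, Ifi27l2a, Irf7 and Rtp4 had a mean under 10 CPM over the control and deleted cells and passed the filter through the SI library, which favours a rise. The median was 0.91 (0.90 without the cells of high doublet score). In the deleted library 5 of the 13 were above 0, none rose or fell, and the median was -0.03. The summed level of all 18 was 420, 420 and 829 CPM in control, deleted and SI cells. Interferon regulatory factors bind the interferon-stimulated response element. Promoters of 4 of the genes are shown because the list moved together, as RefSeq windows of the same 300 bases on GRCm38.p6: Isg15 at chr4:156200769-156201068, minus strand, Bst2 at chr8:71537423-71537722, minus strand, Oas1a at chr5:120907476-120907775, minus strand and Irf7 at chr7:141266375-141266674, minus strand. Capitals mark the letters GAAANNGAAA of that element on either strand, overlaps allowed.
Isg15: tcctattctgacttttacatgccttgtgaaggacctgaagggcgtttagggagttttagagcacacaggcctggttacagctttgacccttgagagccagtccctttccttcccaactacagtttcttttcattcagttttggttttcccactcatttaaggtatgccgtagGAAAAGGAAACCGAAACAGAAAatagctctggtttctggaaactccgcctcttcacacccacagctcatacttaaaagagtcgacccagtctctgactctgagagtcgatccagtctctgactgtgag
Bst2: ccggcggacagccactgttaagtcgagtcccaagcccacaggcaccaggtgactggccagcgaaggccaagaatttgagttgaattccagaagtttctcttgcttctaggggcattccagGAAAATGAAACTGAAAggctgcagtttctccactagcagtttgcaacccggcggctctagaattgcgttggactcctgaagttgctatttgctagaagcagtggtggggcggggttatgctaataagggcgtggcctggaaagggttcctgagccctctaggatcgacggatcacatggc
Oas1a: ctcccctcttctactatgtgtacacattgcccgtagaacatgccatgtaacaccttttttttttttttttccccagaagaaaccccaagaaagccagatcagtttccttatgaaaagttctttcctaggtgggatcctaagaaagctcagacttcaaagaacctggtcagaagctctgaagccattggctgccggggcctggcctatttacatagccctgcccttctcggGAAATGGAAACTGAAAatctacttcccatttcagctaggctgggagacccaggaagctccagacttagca
Irf7: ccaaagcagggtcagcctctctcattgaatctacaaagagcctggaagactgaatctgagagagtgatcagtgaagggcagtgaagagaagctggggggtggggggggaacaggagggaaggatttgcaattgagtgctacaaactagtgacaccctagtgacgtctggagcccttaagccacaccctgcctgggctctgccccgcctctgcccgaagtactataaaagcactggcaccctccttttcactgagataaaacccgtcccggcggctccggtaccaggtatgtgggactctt
The Isg15 window holds 3 overlapping matches, those of Bst2 and Oas1a hold 2 each and that of Irf7 holds 0. At least 1 match was found for 8 of the 13 interferon genes that have a promoter entry (61.5%), for 1 of 9 azurophil and 0 of 14 specific granule genes, and in 3.44% of the 32851 promoter windows. The 13 with a promoter entry are not the 13 measured genes: they include Ifit1 and Ifit3, which hold matches but did not pass the filter. Of the 5 genes that rose, only Isg15 had a match. The Irf7 and Oasl2 windows held 0, and Ifi27l2a and Rtp4 had no promoter entry.

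Ifi27l2a, encoding a small interferon-induced membrane protein, stood at 3.68, 3.43 and 28.7 CPM in control, deleted and SI cells, an SI over control ratio of 7.80 (6.11 to 10.1). Irf7, the interferon regulatory factor that amplifies the response, stood at 8.85, 5.72 and 41.0 CPM, a ratio of 4.63 (3.92 to 5.49). Isg15, a ubiquitin-like modifier, stood at 13.9, 15.4 and 55.8 CPM, a ratio of 4.02 (3.52 to 4.61). For these 3 the SI cells stood apart while control and deleted cells were close. Rtp4, a chaperone of receptors, rose as well (11.4, 8.01 and 38.6 CPM), as did Oasl2 of the oligoadenylate synthetase family (13.3, 13.2 and 34.3 CPM, a log2 ratio of 0.93 with 10 CPM added). Genes inside 2-fold included Bst2 (tetherin) at 168, 171 and 274 CPM, the GTPase gene Ifi47 at 74.8, 94.4 and 127 CPM and Oas1a at 21.9, 28.0 and 42.0 CPM.

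The higher level was spread over many SI cells. With 5000 UMIs per cell, the 18 genes had a mean of 2.17, 1.99 and 4.16 UMIs and a median of 2, 2 and 3 in control, deleted and SI cells. At least 5 UMIs were found in 8.43%, 7.59% and 27.8% of the cells. Irf7 was detected in 4.10%, 2.53% and 13.7% of the thinned cells and in 9.17%, 16.3% and 30.5% of erythroid barcodes. For Isg15 the shares were 5.20%, 8.86% and 15.8% in Elane+ Cebpe+ cells and 7.90%, 10.2% and 32.4% in erythroid barcodes. Other SI cells were shifted in the same direction, and differences in the size of the shift were not tested: the SI over control median of the list was 0.91 in Elane+ barcodes without Cebpe, 0.86 in those with F13a1, 1.42 in erythroid and 1.76 in B-lineage barcodes. The B-lineage value rests on only 34 control and 27 SI barcodes, with 214724 and 185442 UMIs in total. The increase in the SI library was thus not limited to Elane+ Cebpe+ cells.

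Serpina3i, a serine protease inhibitor gene of the Serpina3 cluster, had 0 UMIs in control and deleted cells and 777 in SI cells, where 363 of 879 cells had one, and was at least 355-fold higher than in the control with 0 taken as 3 UMIs. After thinning it was detected in 16.1% of SI cells and 14.5% of SI erythroid barcodes. Serpina3g, of the same cluster, fell in the SI cells, at 67.3, 79.5 and 20.4 CPM. Genes of this cluster are close copies, so single-gene counts are uncertain. Scin, encoding the actin-severing scinderin, stood at 4.50, 0.572 and 30.2 CPM, an SI over control ratio of 6.71 (5.36 to 8.47). Cnbd2 stood at 6.46, 12.6 and 29.8 CPM.

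Rgcc, a regulator of cell cycle kinases, had the largest decrease in the SI cells on the log2 scale with 1 CPM added, at 309, 218 and 11.8 CPM, an SI over control ratio of 0.0382 (0.0328 to 0.0443). It was detected in 71.2%, 57.0% and 4.65% of thinned control, deleted and SI cells. The SI share was at or below the 6.72% of SI erythroid barcodes, which had 8.66% in the control. Nkg7, a granule protein gene of cytotoxic cells and the only measured gene of 14 T and NK markers, fell as well, at 896, 916 and 394 CPM. It was detected in 95.8%, 96.2% and 69.0% of thinned cells, and its log2 ratio of -1.18 was -0.99 with the rule on thinned cells. In Elane+ barcodes without Cebpe, Rgcc went from 174 CPM in the control to 4.54 in the SI library and Nkg7 from 605 to 139 CPM. Siglecf, a sialic acid-binding lectin known from eosinophils, was lower in both libraries, at 42.7, 10.9 and 12.1 CPM.

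The inducible heat shock genes Hspa1a and Hspa1b rose in both libraries, against 0.427% and 0.617% of all genes, while the rest of the 11 measured heat shock genes did not pass 2-fold. Hspa1a stood at 1.91, 13.2 and 19.1 CPM and Hspa1b at 3.16, 13.7 and 30.6 CPM in control, deleted and SI cells. Both passed the filter through the deleted and SI libraries, which favours a rise. The medians of the list were 0.24 and -0.07. The constitutive chaperone Hspa8 stood at 1686, 1663 and 1424 CPM. The 2 Hspa1 genes are near-identical, so UMIs can be assigned to either. With 10 CPM added the deleted log2 ratios were 0.96 and 0.85, under 2-fold.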

How the data were processed

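The labels describe 10x Genomics 5′ version 2 libraries of bone marrow cells. The deposited matrices hold raw UMI counts per gene and barcode, and the authors' cell calling came before deposit. Cell Ranger 7.1.0 and mm10 are named in the submitters' processing notes. From these counts, UMIs were summed over the Elane+ Cebpe+ cells of each library and expressed as CPM over all UMIs, with 1 CPM added for log2 ratios, which understates changes of low genes. Ratios were read for 8431 genes with a mean of at least 10 CPM over the 3 Kit+ libraries, and a call means at least 2-fold. No test was possible with 1 library per group. For comparisons of detection, cells were thinned to 5000 UMIs. Doublets were scored with Scrublet in scanpy 1.11.5 (expected share 8%). Its score of 0.25 was chosen after the scores were seen, and scored cells stayed in the values unless stated.

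The cells and the 24 gene lists were chosen with earlier results of these data known. Named genes were the 8 highest and 8 lowest ratios per comparison with at least 50 UMIs in the higher library, leaving out receptor segments, mitochondrial, ribosomal protein, predicted, Rik, Xist, Tsix and Y-linked genes. To these came list members past 2-fold, the 4 most abundant members of each list, the genes of the rule, and the 8 genes each way that best separated cells with and without Cebpe. Xist, Ddx3y and further list members were named after their values were seen. Of 15 alternatives 3 were added after the data were seen: cells without erythroid or megakaryocyte UMIs, F13a1 at any level, and cells of 15000 to 25000 UMIs. Gene positions and promoters are on GRCm38. The ratio step was tested on simulated data. Python 3.11.15, numpy 2.4.6, scipy 1.17.1, pandas 2.3.3 and matplotlib 3.10.9 were used.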

Additional observations from a re-analysis of the deposited data

How the results depend on the processing

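No paired analysis was possible because each group had 1 library, and for the same reason no replicate could be left out. The counting interval of a list median is that of its middle gene or genes and does not measure the spread of the list. The azurophil medians stayed within their counting interval under all 15 alternatives. These intervals ran from 0.049 to 0.43 in the deleted and from 0.15 to 0.39 in the SI cells. The log2 share ratio of the deleted library (-4.35) was -4.98 with 0 Cd79a UMIs, -3.39 with the rule on cells thinned to 5000 UMIs, -3.96 with F13a1 at any level and -2.46 in cells of 15000 to 25000 UMIs. That of the SI library (-0.57) was -0.38 in cells with no Gata1, Klf1 or Pf4 UMI and at most 2 Car1 UMIs, and -0.41 in cells of 15000 to 25000 UMIs.

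The 36 genes higher in the deleted cells were 157 with the rule on thinned cells, 20 with 10 CPM added, 315 with no filter on low genes and 9 with a filter of 50 CPM. The 126 lower genes were 380, 42, 710 and 9 under these, and 203 with a total that left out 4 azurophil, ribosomal protein and mitochondrial genes. The 52 higher genes of the SI cells were 31 with 10 CPM added, 178 with no filter and 7 with a filter of 50 CPM. The 31 lower ones were 15, 147 and 7 under these, 50 with the reduced total and 20 without erythroid-type UMIs. A filter changes how many genes are counted, and for the other settings the cause was not tested.

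The specific granule median of the deleted cells (-0.25) was -0.42 with the rule on thinned cells, -0.090 with each cell weighing the same, -0.42 with F13a1 at any level and -0.73 in cells of 15000 to 25000 UMIs. That of the SI cells (0.46) was 0.21 at a doublet score of at most 0.25, 0.030 with the rule on thinned cells, 0.55 with a filter of 50 CPM, 0.24 with each cell weighing the same, 0.20 without erythroid-type UMIs and 0.62 in cells of 15000 to 25000 UMIs. For lists whose counting interval did not include 0, the direction turned in 3 cases: the basophil and mast list in the deleted cells (-0.71) was 0.10 with a filter of 50 CPM, and with no filter the SI heat shock median (-0.07) was 0.031 and the SI megakaryocyte median (0.31) was -0.86. Medians whose interval included 0 also changed sign, such as those of the G2/M list (0.22 and 0.08), at -0.33 and -0.20 in cells of 15000 to 25000 UMIs. Of the named genes, 36 were past 2-fold in the deleted cells, 16 of them under all 15 alternatives, and 31 in the SI cells, 19 of them under all 15. With 79 deleted cells, 1 cell can set a value, also for abundant genes such as Camp and Ngp.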

Other observations

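Surface receptors and adhesion genes, of which 20 of 22 were measured, had medians of -0.03 in the deleted and 0.17 in the SI cells. In the deleted cells 3 fell, Itgam, Csf1r and Cxcr2, against 1.49% of all genes, and in the SI cells Cxcr2 rose, against 0.617%. All 3 were below 10 CPM in the deleted cells and passed the filter through other libraries, which favours a fall. Cxcr2 passed it through the SI library, which favours a rise there. Kit, the sorted receptor, stood at 204, 207 and 204 CPM in control, deleted and SI cells. The receptor chains of granulocyte-macrophage and interleukin 3 signalling were highest in the SI cells without passing 2-fold: Csf2ra stood at 93.6, 101 and 144 CPM and Il3ra at 58.7, 57.2 and 90.2 CPM. Il6ra was lowest in the deleted cells, at 18.0, 9.15 and 24.4 CPM, also inside 2-fold.

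Genes of early progenitors still had transcripts in these cells, and 1 of 14 measured genes of 16, Gata2, fell in the deleted library, against 1.49% of all genes. The medians were -0.22 and -0.15. Cd34 stood at 232, 199 and 222 CPM, Lmo2 at 299, 257 and 272 CPM and Meis1 at 39.4, 20.6 and 34.6 CPM. Mecom, a stem cell transcription factor gene, was lowest in the SI cells, at 16.8, 22.3 and 8.33 CPM, and Hoxa9 was too, at 32.6, 39.5 and 19.9 CPM. None of 8 cyclin D and CDK inhibitor genes, 6 Bcl2 family genes and 3 MHC class II genes rose or fell, with medians of 0.05, 0.07 and -0.42 in the deleted and 0.07, 0.04 and -0.19 in the SI cells. Among all genes 0.427% rose and 1.49% fell in the deleted library, and 0.617% and 0.368% in the SI library.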
